A study of Mus musculus with 11 samples.

Results

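The core circadian clock and its output genes were examined as 10 genes, *Arntl* (also called *Bmal1*), *Clock*, *Per1*, *Per2*, *Per3*, *Cry1*, *Nr1d1*, *Nr1d2*, *Dbp* and *Tef*, taken by symbol from the 29307 genes of a raw count table. RNA-seq was done on liver sinusoidal endothelial cells (ECs) of 5 germ-free (GF) mice, bred without microbes in isolators, and 6 conventionally raised (CONV-R) mice, which carry a specific-pathogen-free microbiota and came from the same colonies. All 11 mice were male wild-type C57BL/6J animals of 10 to 12 weeks on the same autoclaved diet, with 12 hours of light a day, and none received an agent. ECs were released by a heated enzymatic dissociation of 34 minutes, enriched on CD146 beads and sorted as CD31+ CD105+ CD146+ cells, with 1 library per mouse. The hour at which the livers were taken is not given in the sources used here, and each mouse was sampled once, so a difference in level and a difference in the phase of a rhythm cannot be told apart.

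The clock is a feedback loop of transcription that runs in almost every cell. ARNTL and CLOCK bind together to E-box sequences and switch on the *Per* and *Cry* genes, whose proteins return to the nucleus and repress ARNTL and CLOCK. A second loop, through the nuclear receptors NR1D1 and NR1D2 (REV-ERBα and REV-ERBβ), represses *Arntl*, and the PAR bZIP factors DBP and TEF pass the rhythm on through D-box sequences. In the liver the *Per* genes also respond to feeding, temperature and glucocorticoid hormone.

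A few promoter windows are shown because they are the *Per* gene windows that hold an E-box, a D-box or the core of a cyclic AMP response element, through which outside signals can act on *Per1*. No window of *Per2* is shown. Each runs 250 bases up to a RefSeq start site (GRCm38.p6), and capitals mark an E-box (CACGTG) in the first, the core TGACGT of a cyclic AMP response element in the second and D-boxes (TTATGTAA) in the third.
Per1, chr11:69098699-69098948, plus strand: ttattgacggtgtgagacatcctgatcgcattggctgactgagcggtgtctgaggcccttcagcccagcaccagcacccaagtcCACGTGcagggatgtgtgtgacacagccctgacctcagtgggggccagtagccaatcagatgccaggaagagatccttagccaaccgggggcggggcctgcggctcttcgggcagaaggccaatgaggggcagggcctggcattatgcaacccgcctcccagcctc
Per1, chr11:69099902-69100151, plus strand: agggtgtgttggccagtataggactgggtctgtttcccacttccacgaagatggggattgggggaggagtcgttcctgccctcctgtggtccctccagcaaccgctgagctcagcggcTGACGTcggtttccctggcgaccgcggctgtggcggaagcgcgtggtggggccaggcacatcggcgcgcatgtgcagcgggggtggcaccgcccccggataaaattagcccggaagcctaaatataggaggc
Per3, chr4:151044666-151044915, minus strand: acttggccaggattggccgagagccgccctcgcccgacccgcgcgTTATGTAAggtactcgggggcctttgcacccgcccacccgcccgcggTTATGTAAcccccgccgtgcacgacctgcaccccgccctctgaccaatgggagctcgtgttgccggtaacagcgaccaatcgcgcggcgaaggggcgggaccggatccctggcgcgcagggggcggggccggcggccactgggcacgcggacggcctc

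Windows of 250 bases before and 50 after a start were available for 9 of the 10 genes (14 windows), *Per2* being the one without. Both strands were searched. An E-box stood in a window of *Per1*, in that of *Cry1* and in both of *Tef*, and 7.15% of all 32851 windows held one. A D-box (TTATGTAA or TTACGTAA) was found only in *Per3* among these 14 windows, in 2 copies, against 1.06% of all windows. The core TGACGT, which also lies inside the full element TGACGTCA, was in 1 window of *Per1* and in 7.51% of all windows, while no window of the 9 genes held the full element (1.79% of all). The ROR motif AGGTCA, read by NR1D receptors, was in a window each of *Arntl*, *Clock*, *Per1* and *Nr1d2* and in 16.26% of all windows. These matches describe letters only.

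Libraries held 7922855 to 14669352 counts in CONV-R and 7242717 to 16164588 in GF mice. Levels are given as CPM, the usual depth-scaled count, with library totals adjusted by TMM (trimmed mean of M values). Endothelial identity was checked with 12 liver sinusoidal EC markers, whose summed level was 30236 to 37014 CPM in CONV-R and 29301 to 41705 CPM in GF mice, with 0 of the 12 passing the test given later (edgeR, DESeq2 and limma voom; 6 higher at an unadjusted p under 0.05). CONV-R 3 and CONV-R 4 each stood apart from their group in several clock genes by Dixon's outlier test. In CONV-R 3, with 7922855 counts, these were *Clock* (low) and *Ciart* (high), and it also had the lowest *Per1* and highest *Arntl* of its group. In CONV-R 4 they were *Nr1d2* and *Dbp* (high) and *Hlf* (low). Values without these libraries are given beside several of the results they move, and ranges without single libraries are given later. Nothing in the labels says more than that the libraries are from separate mice.

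All 10 genes had enough counts to be tested. *Per1* and *Per2* were higher in GF ECs, by a Log2FC of 3.33 and 2.10, and in both genes the groups did not overlap in any mouse (2 of 10 genes, both higher in GF, where 5.59% of all tested genes had groups apart, 3.22% higher and 2.37% lower). *Per3*, *Cry1*, *Arntl*, *Clock*, *Nr1d1*, *Nr1d2*, *Dbp* and *Tef* did not pass the test. Thus 2 of 10 genes passed in the direction of GF and 0 in the other (edgeR quasi-likelihood test, Benjamini-Hochberg adjusted p under 0.05 over 12905 genes), where 7.48% of all tested genes passed in either direction, 4.80% higher and 2.67% lower. At an unadjusted p under 0.05, 3 genes were higher (*Nr1d1* being the other one) and 0 lower, and DESeq2 and limma voom each gave 2 higher and 0 lower. With the Kupffer marker covariate described later, *Per1* alone of the 10 passed, where 82 of 12905 tested genes passed. With the replicate number as a block, also described later, 3 of the 10 passed, *Nr1d1* being added, where 1101 of 12807 tested genes passed. The median Log2FC of the 10 genes was 0.18, with 5 values above and 5 below 0, beside a median of -0.0061 over all tested genes.

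**Figure D1:**
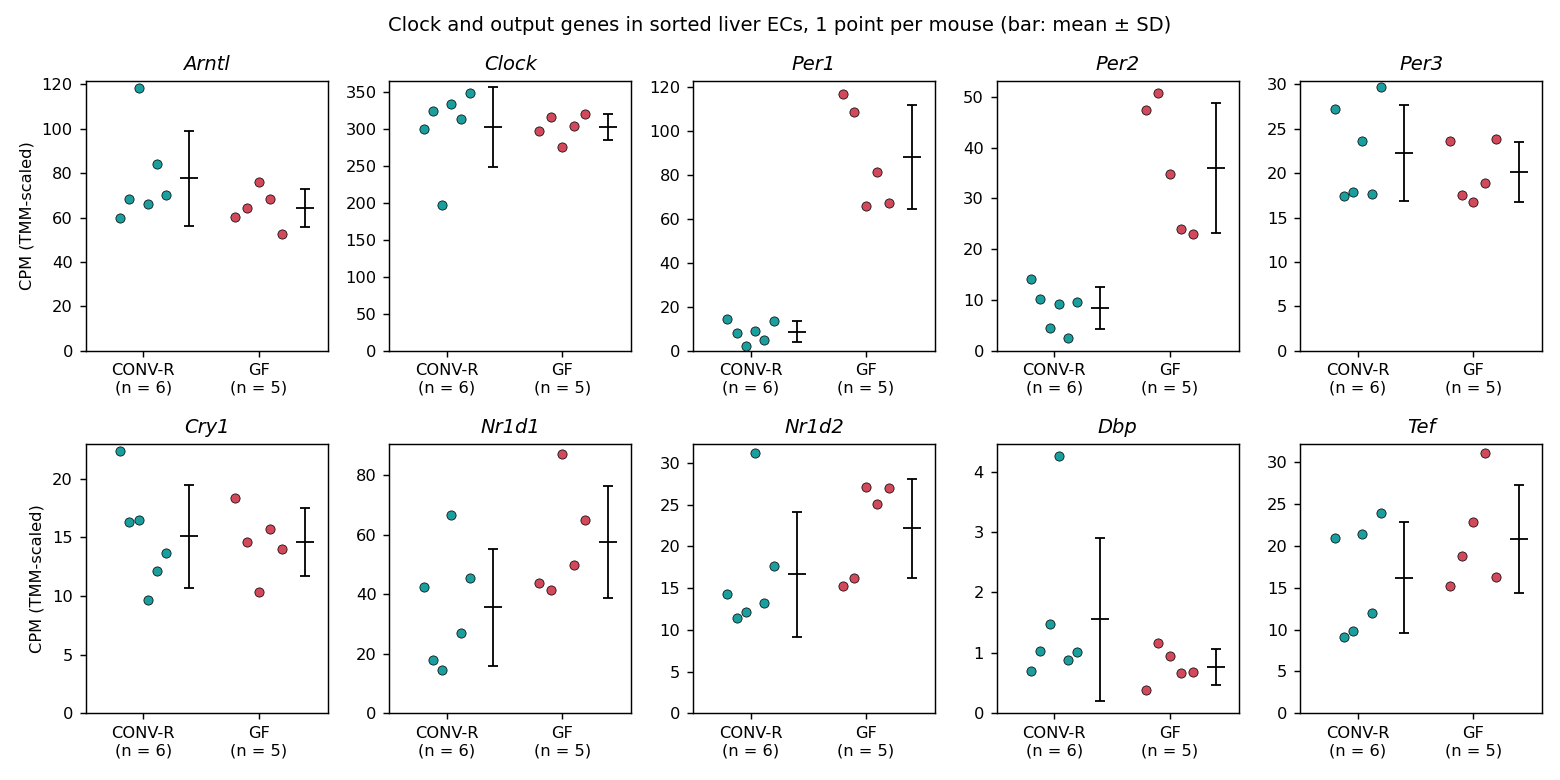
CPM of the 10 genes in each mouse (points; teal, 6 CONV-R; red, 5 GF), with the group mean ± SD beside them on linear axes that start at 0. *Per1* and *Per2* are the panels in which the groups do not overlap, with *Per1* between 1.96 and 14.4 CPM under a microbiota and between 66.0 and 117 CPM without one.

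*Per1* (chromosome 11, 69095217 to 69109960, plus strand, protein coding) encodes a repressor of ARNTL and CLOCK that is also induced quickly by outside signals. Its level was 14.4, 8.06, 1.96, 8.84, 5.09 and 13.4 CPM in the CONV-R mice and 117, 108, 66.0, 81.4 and 67.0 CPM in the GF mice. The lowest GF value exceeded the highest CONV-R value, and the counts behind these values ran from 16 to 185 and from 494 to 1798. The means were 8.62 ± 4.76 (SD, n = 6) and 87.9 ± 23.5 CPM (SD, n = 5), a Log2FC of 3.33 with a standard error of 0.33 (edgeR, adjusted p = 8.69e-06). By size of increase *Per1* was number 17 of the 12905 genes tested.

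*Per2* (chromosome 1, 91415982 to 91459324, minus strand, protein coding) encodes the partner repressor. The CONV-R mice had 14.2, 10.1, 4.54, 9.16, 2.58 and 9.54 CPM, and the GF mice had 47.4, 50.7, 34.9, 24.1 and 22.9 CPM. Again no GF mouse fell within the CONV-R range, although GF 5 and GF 6 were closer to it than the other GF mice. The means were 8.36 ± 4.17 (SD, n = 6) and 35.995 ± 12.9 CPM (SD, n = 5), with a Log2FC of 2.10 and a standard error of 0.33 (edgeR, adjusted p = 0.00088). Without CONV-R 3 the Log2FC was 3.14 for *Per1* and 1.98 for *Per2* (edgeR, adjusted p = 2.01e-06 and 0.00153). With the Kupffer marker covariate *Per2* did not pass (1.82, edgeR, adjusted p = 0.125).

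*Per3* (chromosome 4, 151003652 to 151044665, minus strand) is the third paralog and the least needed for rhythm. It ran from 17.4 over a median of 20.8 to 29.7 CPM in CONV-R mice and was 23.6, 17.6, 16.8, 18.9 and 23.9 CPM in GF mice. The groups overlapped, with a Log2FC of -0.14 and a standard error of 0.18 (edgeR, adjusted p = 0.690). *Cry1* (chromosome 10, 85131700 to 85185064, minus strand), the cryptochrome that binds PER proteins, ran from 9.64 over 14.99 to 22.3 CPM in CONV-R mice and was 18.4, 14.6, 10.4, 15.7 and 14.0 CPM in GF mice. Its Log2FC was -0.04 with a standard error of 0.21 (adjusted p = 0.937), and its sign turned under other settings.

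**Figure D2:**
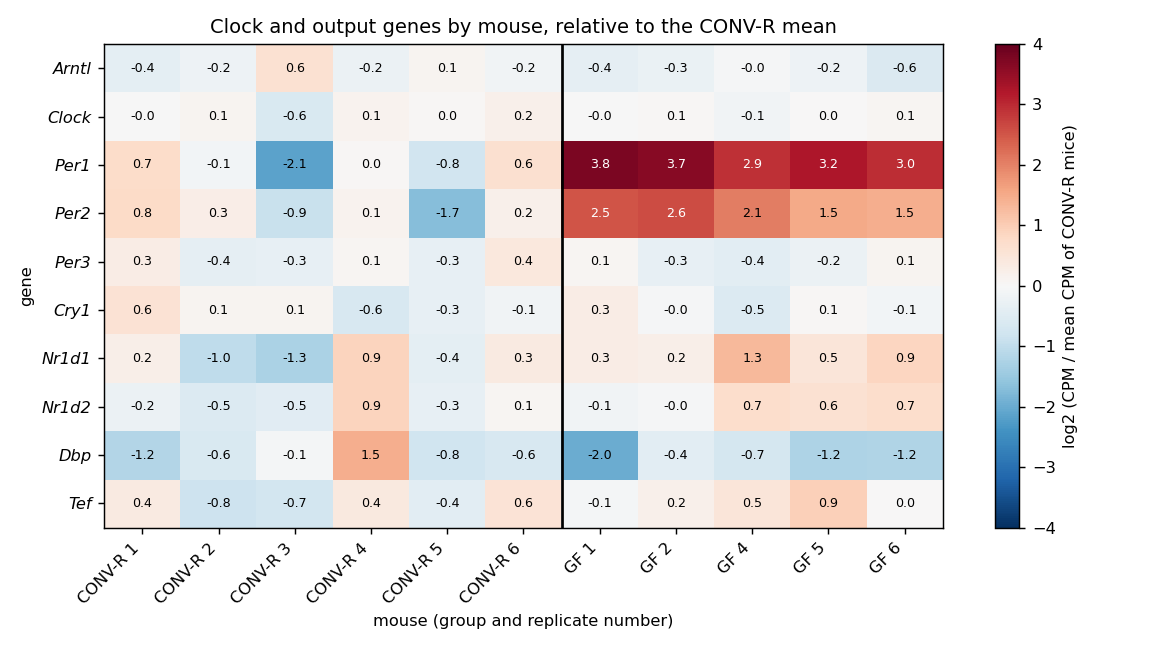
Each gene (row) in each mouse (column) as log2 of its CPM over the CONV-R mean, written in the cell (red above, blue below, colour scale from -4 to 4). The rows of *Per1* (2.94 to 3.76) and *Per2* (1.46 to 2.60) are red in all 5 GF mice, while CONV-R 3 and CONV-R 4 differ from their group in several rows.

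Because a ratio of 2 genes within a library needs no scaling, related genes were also compared as log2 ratios of counts (0.5 added to each) in 6 pairs, by a two-sided exact permutation test over mice with Benjamini-Hochberg adjustment over the 6 pairs. The smallest p that 5 mice against 6 allow in this test is 0.00433. The *Per1* to *Per3* ratio was higher in GF mice by 3.69 (exact permutation p = 0.00433, adjusted 0.0130) and the *Per2* to *Per3* ratio by 2.35 (exact permutation p = 0.00433, adjusted 0.0130), in both with no overlap between groups. *Per1* also differed more than *Per2*: their ratio was between -1.18 and 0.97 in CONV-R and between 0.92 and 1.76 in GF ECs, a difference of 1.34 (exact permutation p = 0.00866, adjusted 0.0173), with 1 CONV-R mouse inside the GF range. These 3 pairs share genes and are not independent of each other.

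**Figure D3:**
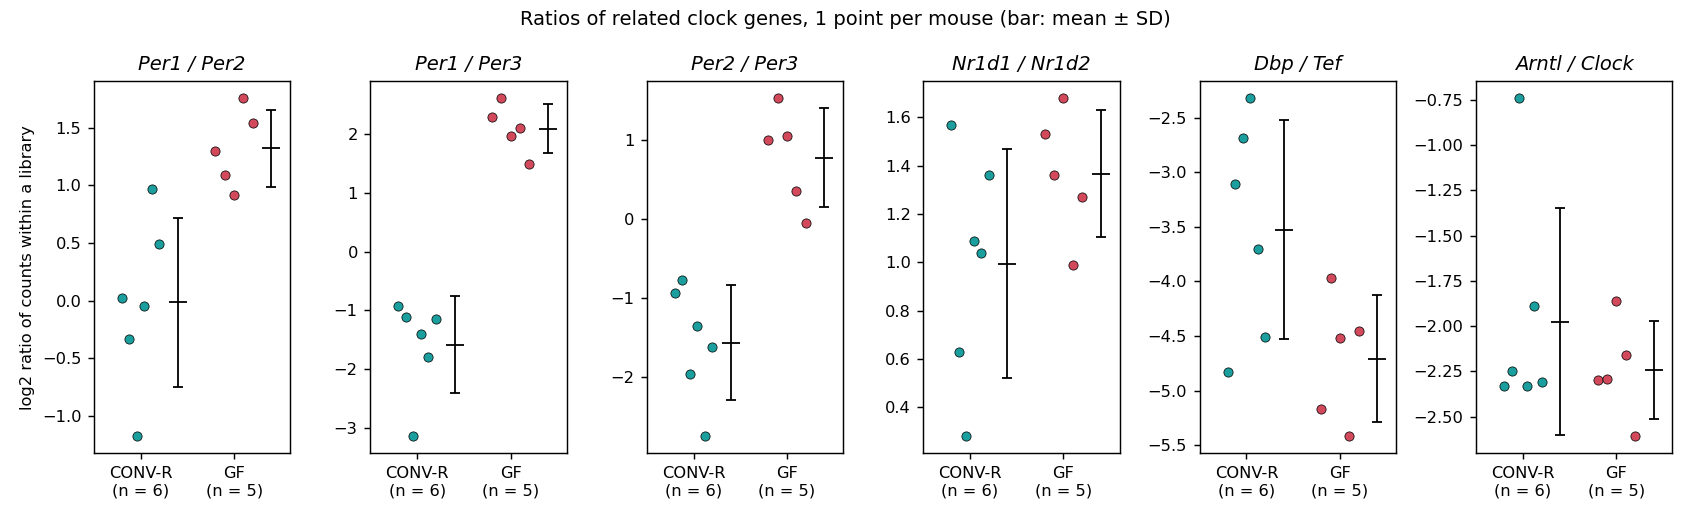
Log2 ratio of counts of 2 related genes within each library (points; teal, 6 CONV-R; red, 5 GF), with mean ± SD beside them; each panel has its own linear axis. Of the 6 pairs, *Per1* to *Per3* and *Per2* to *Per3* show separate groups.

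Neither activator passed the test. *Arntl* (chromosome 7, 113207465 to 113314126, plus strand) ran from 59.8 over 69.1 to 118 CPM in CONV-R mice and was 60.4, 64.3, 75.9, 68.2 and 52.5 CPM in GF mice, the highest value being that of CONV-R 3. Its Log2FC was -0.27 with a standard error of 0.16 (edgeR, adjusted p = 0.336), and without CONV-R 3 the value was -0.12 (adjusted p = 0.615). *Clock* (chromosome 5, 76209868 to 76304792, minus strand) averaged 303 ± 54.2 CPM (SD, n = 6) in CONV-R and 303 ± 17.7 CPM (SD, n = 5) in GF mice, a Log2FC of -0.00098 with a standard error of 0.13 (adjusted p = 0.997). The *Arntl* to *Clock* ratio differed by -0.27 (exact permutation p = 0.515, adjusted 0.515), and by -0.021 without CONV-R 3 (exact permutation p = 0.944).

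Set against *Arntl* in the same library, *Per1* had a log2 ratio between -5.87 and -2.06 in CONV-R and between -0.20 and 0.95 in GF ECs. For *Per2* the ranges were -5.01 to -2.07 and -1.50 to -0.34. Both are apart between the groups. The ratio of *Nr1d1* to *Arntl* ran from -3.00 to 0.01 in CONV-R and from -0.63 to 0.31 in GF mice, and those of *Dbp* to *Arntl* from -6.51 to -3.95 and from -7.16 to -5.74, so that both overlap.

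The receptors of the second loop varied widely among CONV-R mice. *Nr1d1* (chromosome 11, 98767932 to 98775333, minus strand) ran from 14.7 over 34.8 to 66.6 CPM in CONV-R mice and was 44.0, 41.6, 87.0, 49.97 and 65.0 CPM in GF mice. CONV-R 4 held the highest value of its group, above 4 of the 5 GF mice. This gave a Log2FC of 0.68 with a standard error of 0.31 (edgeR, adjusted p = 0.202, unadjusted 0.0434). With the replicate number as a block, described later, *Nr1d1* passed (0.60, edgeR, adjusted p = 0.0291). *Nr1d2* (chromosome 14, 18204054 to 18239127, minus strand) ran from 11.5 over 13.7 to 31.2 CPM in CONV-R and was 15.2, 16.2, 27.1, 25.1 and 27.0 CPM in GF mice, with a Log2FC of 0.40 and a standard error of 0.26 (adjusted p = 0.366). Without CONV-R 4 the values were 0.95 for *Nr1d1* (edgeR, adjusted p = 0.0721) and 0.68 for *Nr1d2* (adjusted p = 0.0773), and without the 3 libraries of lowest total counts *Nr1d2* had 0.14 (adjusted p = 0.818). The ratio of the receptors differed by 0.37 (exact permutation p = 0.165, adjusted 0.197), and by 0.22 to 0.48 without single libraries, with 0 calls. *Nr1d1* shares 263 exonic bases (8.55%) with *Thra* on the other strand. Adapters were ligated directly to double-stranded cDNA, and the paper names no step that keeps strand. Reads from the shared bases therefore cannot be told apart by strand.

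Among the PAR bZIP outputs *Dbp* was nearly silent. *Dbp* (chromosome 7, 45705088 to 45710203, plus strand) had 9, 15, 12, 53, 11 and 13 counts in the CONV-R mice and 6, 12, 10, 5 and 5 counts in the GF mice. CONV-R 4 alone held 53 of the 113 counts of its group. The means were 1.56 ± 1.35 (SD, n = 6) and 0.768 ± 0.296 CPM (SD, n = 5), a Log2FC of -1.02 with a standard error of 0.54 (edgeR, adjusted p = 0.279). Without CONV-R 4 the value was -0.40 (adjusted p = 0.694), and with the Kupffer marker covariate described later it was -0.12 (adjusted p = 0.991). The exons share 539 bases (18.01%) with *Sphk2* on the other strand, and reads from these bases likewise cannot be told apart by strand. *Tef* (chromosome 15, 81802421 to 81826863, plus strand) ran from 9.08 over 16.5 to 23.9 CPM in CONV-R mice and was 15.2, 18.8, 22.9, 31.1 and 16.3 CPM in GF mice. Its Log2FC was 0.36 with a standard error of 0.27 (edgeR, adjusted p = 0.459). Without GF 5 the value was 0.17 (edgeR, adjusted p = 0.739), and without the 3 libraries of lowest total counts 0.11 (edgeR, adjusted p = 0.858). The *Dbp* to *Tef* ratio differed by -1.18 (exact permutation p = 0.0563, adjusted 0.0844), and without CONV-R 1 it passed the test at -1.44 (exact permutation, adjusted p = 0.0357).

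Levels per kilobase of exon allow the genes to be ordered. In CONV-R ECs *Clock* led with 22.1 CPM per kb, followed by *Nr1d1* (11.6) and *Arntl* (10.3), whose SDs overlap, then *Cry1* (4.52), *Nr1d2* (3.08), *Per3* (2.32), *Tef* (2.06), *Per1* (1.53), *Per2* (1.43) and *Dbp* (0.521). From *Cry1* to *Dbp* the mean ± SD of each gene overlapped that of its neighbour. In GF ECs *Per1* rose in the order from place 8 to place 3, with 15.6 ± 4.18 CPM per kb (SD, n = 5), behind *Clock* (22.1 ± 1.29) and *Nr1d1* (18.7 ± 6.12), and *Per2* from place 9 to place 5, with 6.15 ± 2.20, after *Arntl* (8.54 ± 1.16). The mean ± SD of *Per1* overlapped that of *Nr1d1* but not of *Arntl*, and that of *Per2* overlapped those of *Arntl* and *Cry1* (4.37 ± 0.871). *Dbp* was last in both groups. The length is that of all annotated exons, so that these levels are approximate.

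The other clock genes were described with a list of 24, of which 3 had too few counts to be tested. Of the 21 tested, 1 rose, 1 fell and 19 did not pass (edgeR), a share near the 7.48% of all tested genes, with a median Log2FC of -0.014. At an unadjusted p under 0.05, 2 were higher and 3 lower, DESeq2 called 1 higher and 3 lower, and limma voom 1 and 1. *Timeless*, among the 3 lower at an unadjusted p, had a Log2FC of -0.33 with a standard error of 0.11 (edgeR, adjusted p = 0.0764). *Klf15*, a rhythmic regulator of metabolism that also responds to glucocorticoids, rose from 1.55 ± 0.589 (SD, n = 6) to 10.1 ± 2.80 CPM (SD, n = 5), a Log2FC of 2.69 with a standard error of 0.30 (edgeR, adjusted p = 3.75e-05). *Klf10*, a Krüppel-like factor under clock control, fell from 117 ± 21.3 to 78.1 ± 8.49 CPM, a Log2FC of -0.58 with a standard error of 0.14 (adjusted p = 0.0161). With the Kupffer marker covariate described later *Klf15* still passed (2.92, adjusted p = 0.00193) and *Klf10* did not (-0.66, edgeR adjusted p = 0.216).

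Among the 5 further repressors, 0 passed in either direction (edgeR; 1 lower and 0 higher at an unadjusted p under 0.05; DESeq2 1 lower, limma voom 0). *Ciart*, a repressor of ARNTL and CLOCK, was the one nearest to the threshold, with 4.38 CPM in CONV-R and 2.20 CPM in GF mice, groups that do not overlap and a Log2FC of -0.98 with a standard error of 0.32 (adjusted p = 0.0689). It passed by DESeq2 (adjusted p = 0.0262), with only genes of at least 10 counts in every library (edgeR, adjusted p = 0.0416) and with all libraries thinned to the smallest total (-1.22, edgeR, adjusted p = 0.0264), and did not in the other 9 settings or without any single library. *Cry2* had a Log2FC of 0.26 (adjusted p = 0.721) and *Nfil3*, which opposes the PAR bZIP factors at D-boxes, of 0.86 (adjusted p = 0.338). *Hlf*, the remaining PAR bZIP gene, had 0.90 (adjusted p = 0.130) and passed without GF 5 (1.09, adjusted p = 0.0449) or without the 3 libraries of lowest total counts (1.30, adjusted p = 0.025). *Npas2*, which can stand in for CLOCK, had -0.38 (adjusted p = 0.648). *Rora*, an activator of *Arntl*, had -0.15 (adjusted p = 0.620), and the E-box repressors *Bhlhe40* and *Bhlhe41* had 0.16 (adjusted p = 0.554) and -0.52 (adjusted p = 0.627). The 6 tested kinases and ubiquitin ligases that set PER and CRY stability ran from -0.16 to 0.21, with 0 passing by edgeR, DESeq2 or limma voom and 0 at an unadjusted p under 0.05.

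**Figure D4:**
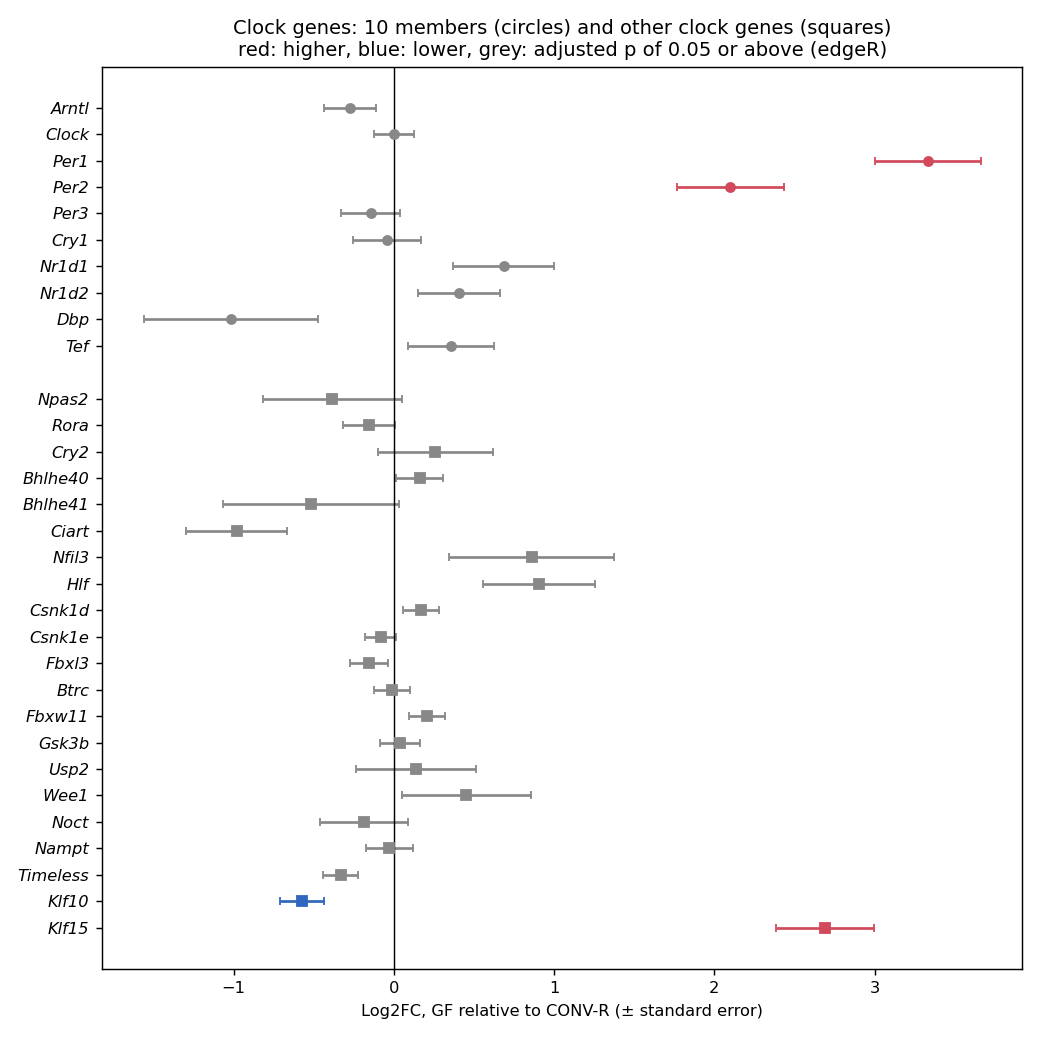
Log2FC of GF relative to CONV-R (points; bars, standard error) for the 10 genes (circles, above) and the 21 tested other clock genes (squares, below). *Per1*, *Per2* and *Klf15* (red) were higher and *Klf10* (blue) lower, and grey genes did not pass the test.

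Lists of glucocorticoid targets and of immediate early genes were read beside *Per1* and *Per2*. Of 10 glucocorticoid targets, 6 were higher and 0 lower in GF mice (edgeR; 7 and 0 at an unadjusted p under 0.05; 6 and 0 by both DESeq2 and limma voom), where 4.80% of all tested genes were higher, and 4 did not pass (*Sgk1*, *Errfi1*, *Mt1* and *Mt2*, with Log2FC from 0.11 to 0.39). Their summed level was 986 to 1173 CPM in CONV-R and 1543 to 2147 CPM in GF mice. *Fkbp5*, a chaperone of the glucocorticoid receptor, had a Log2FC of 1.61, *Klf9* of 1.62 and *Tsc22d3* (GILZ) of 1.59. *Per1* is itself a known target of this receptor and was not counted in that list. The list was chosen with earlier results of these data known. The paper names several of its genes, *Fkbp5* and *Klf9* among them, as higher in GF ECs from the same libraries. Its share beside that of all genes is therefore a description and not an independent result. A list of 12 immediate early and dissociation genes had 11 in the count table, 3 of them with too few counts to be tested. Of the 8 tested, 5 had a Log2FC above and 3 below 0. By edgeR 6 did not pass and 2 were higher, where 4.80% of all tested genes were higher. The 2 were *Btg2* (0.62, edgeR, adjusted p = 0.0112) and *Fosl2* (0.61, edgeR, adjusted p = 0.0236). At an unadjusted p under 0.05, 3 were higher, and DESeq2 called 3 of the list higher and limma voom 2. Among the 6 that did not pass, *Nr4a1*, an orphan nuclear receptor, had the highest Log2FC, 1.46 (edgeR, adjusted p = 0.0626), and *Egr1*, an early growth response factor, the lowest, -0.50 (adjusted p = 0.530). The part of these genes in the *Per1* and *Per2* result was not tested.

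Markers of Kupffer cells, the macrophages of the sinusoid, moved as well. Of 10 markers 7 were higher in GF mice (edgeR; 9 at an unadjusted p under 0.05, 7 by DESeq2, 6 by limma voom), against 4.80% of all tested genes, and their sum was 89.3 to 234 CPM (median 115) in CONV-R and 206 to 947 CPM (median 297) in GF mice, with 3 of 5 GF mice above all CONV-R mice. GF 6 had the most, 947 CPM, with 67.0 CPM of *Per1* and 22.9 CPM of *Per2*. CONV-R 1 had 234 CPM of these markers, more than GF 4 (206) and GF 5 (215), with 14.4 CPM of *Per1* against 66.0 and 81.4. The mean of the markers was used as a covariate, a setting added after the data were seen. *Per1* then had a Log2FC of 2.92 (edgeR, adjusted p = 0.00249) and *Per2* of 1.82, which no longer passed (edgeR, adjusted p = 0.125). The standard error of *Per2* rose from 0.33 to 0.48, and the calls over all genes fell to 82. The markers differed between the groups, so marker level and group cannot be fully separated in this fit. The part of Kupffer cells in the *Per1* and *Per2* result was not tested further. Summed hepatocyte markers were 22.7 to 58.8 and 28.4 to 67.1 CPM in CONV-R and GF mice, stellate cell markers 13.6 to 25.3 and 5.33 to 29.1, and lymphocyte markers 4.66 to 13.2 and 3.70 to 6.09. In such bulk samples more cells of a type and more RNA per cell cannot be told apart.

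**Figure D5:**
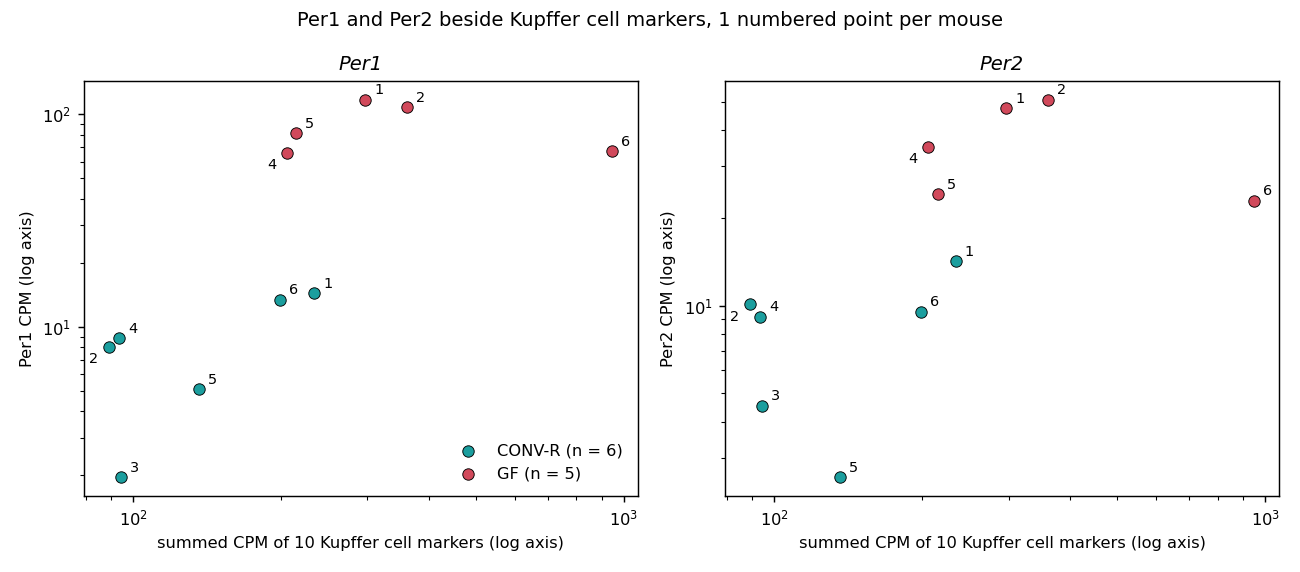
CPM of *Per1* (left) and *Per2* (right) against the summed CPM of 10 Kupffer cell markers, both axes logarithmic, 1 point per mouse with its replicate number (teal, CONV-R; red, GF). GF 4 and GF 5 lie below CONV-R 1 in markers and above it in both genes, and GF 6 holds 947 CPM of markers.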

How the data were processed

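The authors trimmed reads with Trim Galore 0.4.4, aligned them to mouse GRCm38 with STAR 2.5.2b and counted them per gene with featureCounts 1.5.2. The deposited raw counts per gene and library were used, and a table of deposited normalized log2 values served as an alternative. Total RNA was amplified as whole transcriptome before library preparation, and 1 GF library was removed by the authors for few mapped reads. The paper reports fewer sorted ECs and less extracted RNA from GF than from CONV-R livers, and low viability of the sorted cells. The differences in yield run with the group comparison, and their part in the results was not tested. The annotation release and strand setting are not given in the sources used here.

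Libraries held 7242717 to 16164588 counts. Counts were tested with edgeR 4.0.16 (R 4.3.3; filterByExpr, TMM, quasi-likelihood test, Benjamini-Hochberg over 12905 genes, threshold 0.05) between 6 CONV-R and 5 GF libraries, with DESeq2 1.42.0 and limma 3.58.1 voom as alternatives. Pair ratios were tested with scipy 1.17.1 by an exact permutation test. Its two-sided p is the doubled smaller tail, as first run. A second definition, the share of splits with as large an absolute difference, was run after the first results were known and is given only as an alternative. Scripts were tested on simulated data. Named genes are all 10 clock genes, the other clock genes that passed or are paralogs or partners of these 10, and up to 3 companion genes per list of smallest p. *Timeless*, *Sgk1*, *Errfi1*, *Mt1*, *Mt2* and *Egr1* fall outside this rule and were named after their values were seen. The members and gene lists were chosen with earlier results of these data known. Positions are from GENCODE (GRCm38), promoters from RefSeq. Replicates are libraries of separate mice, as labelled.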

Additional observations from a re-analysis of the deposited data

Results flagged for a closer look

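Of 52 sets of mice (a gene or ratio in 1 group) examined, 8 held 1 mouse whose distance from the rest exceeded the 95% limit of Dixon's test, which chance alone passes in about 1 in 20 sets. CONV-R 3 stood apart with a low *Clock* (197.5 CPM), a high *Ciart* (7.24 CPM) and a high log2 ratio of *Arntl* to *Clock* (-0.74). CONV-R 4 stood apart with high *Nr1d2* (31.2 CPM) and *Dbp* (4.26 CPM) and a low *Hlf* (1.53 CPM). CONV-R 6 had a high *Nfil3* (1.94 CPM) and GF 4 a high *Bhlhe41* (2.00 CPM). None of these values is of *Per1* or *Per2*.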

How the results depend on the processing

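*Per1* passed the test in all 12 other settings (Log2FC 2.86 to 3.48) and without each library in turn (3.14 to 3.53). Among these 12 settings, the unblocked fit beside the replicate block described below is the same fit as that without CONV-R 3. *Per2* passed in 11 of 12 (1.79 to 2.26) and without each library (1.91 to 2.31), the exception being the Kupffer marker covariate, which was added after the data were seen and left 1 of the 10 genes called, 1 higher. Leaving out the 3 libraries of lowest total counts was also added then. The other clock genes called numbered 4 by DESeq2 (1 higher, 3 lower), 4 without those 3 libraries, 3 (2 lower) both with at least 10 counts in every library and with counts drawn down to the lowest total, 1 with the covariate and 2 to 4 without single libraries (4 without GF 5). Calls over all genes numbered 1527 by DESeq2, 82 with the covariate and 622 to 1260 without single libraries (625 without CONV-R 4, 622 without GF 6). Small values changed sign: *Arntl* was 0.080 with the covariate, *Clock* 0.014 by voom, 0.0003021 with DESeq2 size factors, 0.034 on the authors' normalized values and -0.099 to 0.041 without single libraries, *Cry1* 2.607e-05 by voom and -0.15 to 0.10 without single libraries, *Npas2* 0.19 without the 3 libraries and *Bhlhe41* 0.082 with the covariate. Without single libraries *Per3* ranged from -0.21 to -0.048, *Nr1d1* from 0.48 to 0.95, *Nr1d2* from 0.31 to 0.68, *Dbp* from -1.22 to -0.40 and *Tef* from 0.17 to 0.50, with 0 of these 5 called (edgeR). Likewise 0 calls were made for *Npas2* (-0.82 without GF 2, -0.12 without CONV-R 3), *Bhlhe41* (-1.15 without GF 4, -0.24 without CONV-R 5), *Nfil3* (0.49 without GF 5, 1.13 without GF 2), *Cry2* (0.075 without GF 1, 0.44 without GF 4), *Rora* (-0.27 without GF 1, -0.092 without GF 5) and *Bhlhe40* (0.074 without GF 5, 0.22 without CONV-R 2). The *Dbp* to *Tef* difference was -1.44 to -0.94 without single libraries. The cause of these changes was not tested.

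The two-sided p of the 6 pair ratios was computed in 2 ways, the second after the first was known. With the absolute difference the *Per1* to *Per3* and *Per2* to *Per3* ratios had an exact permutation p of 0.00216 (adjusted 0.00649), *Per1* to *Per2* 0.00649 (adjusted 0.0130) and *Dbp* to *Tef* 0.0541 (adjusted 0.0812), so that the same 3 pairs passed under either definition.

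Some replicate numbers are shared by the groups, and deviations of same-numbered libraries correlated at -0.014 to 0.20. Differently numbered libraries were not compared in this way, so these values have no reference. Whether a shared number pairs the mice was therefore not tested. With the replicate number as a block over 10 libraries, 3 of the 10 genes passed, *Nr1d1* being added (0.60, adjusted p = 0.0291, against 0.28 in the same libraries without the block), *Cry1* was 0.0065, and calls over all genes numbered 1101 against 931 without the block. *Dbp* had 5 to 53 counts a library, and the part of depth in its result was not tested.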
